A study of Sus scrofa with 8 samples.

Results

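Broad stretches of H3K27 acetylation that belonged mainly to pig epiblast stem cells were taken from the island lists of 4 ChIP-seq libraries. They were selected on measured values: islands that overlapped between libraries were merged on chromosomes 1 to 18, and a merged region was kept when it was at least 20 kb wide and when its mean island-covered length in the 2 pgEpiSC libraries was at least 3 times that in the 2 pEF libraries. This left 1904 of 98547 merged regions. Of the 4813 merged regions that were 20 kb or wider, these 1904 made up 39.6%, while 730 met the same ratio toward pEF and 2179 met neither. Because the regions were chosen by the contrast of pgEpiSC against pEF, every difference in covered length between the cell types is given as a description and carries no test.

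The pgEpiSC libraries, numbered 1 and 4, are labelled as pre-gastrulation epiblast stem cells of the day 10 (E10) embryonic epiblast, and the pEF libraries, numbered 1 and 2, as embryonic fibroblasts of day 30 (E30). No genotype, treatment or animal is named for either cell type, so it is not known whether libraries of 1 type came from separate lines, animals or cultures. Each H3K27ac library had its own input library, sonicated chromatin sequenced without the antibody. With 2 libraries against 2, an exact permutation test could not give a two-sided p below 0.33. In bulk chromatin, a larger share of cells carrying the mark and more of the mark per cell cannot be told apart.

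H3K27ac is an acetyl group on lysine 27 of histone H3, placed mainly by the acetyltransferases p300 and CBP at active promoters and enhancers. Most marked stretches are short. Long marked stretches and dense clusters of marked enhancers, often called super-enhancers or stretch enhancers, are known to lie at genes of cell identity, and in mouse embryonic stem cells they were described at the genes of the pluripotency factors Pou5f1, Sox2 and Nanog.

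The libraries differed in how much of the genome their islands covered. On chromosomes 1 to 18 the islands covered 397 Mb in pgEpiSC 1 and 401 Mb in pgEpiSC 4, against 265 Mb in pEF 1 and 267 Mb in pEF 2. They held 28625531 and 36561661 ChIP reads in pgEpiSC 1 and 4, against 41264137 and 45129916 in pEF 1 and 2. The median fold over input of an island was 1.79 and 1.67 in pgEpiSC 1 and 4 but 3.40 and 3.45 in pEF 1 and 2. Coverage was thus wider in both pgEpiSC libraries. Their deposited folds were lower, but each list has its own scaling, so fold is not comparable between the cell types. The part of the wider coverage in the number of broad regions was not tested beyond scaling covered lengths to the library totals. That scaling left 1521 of the 1904 regions.

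The 1904 regions together spanned 62.1 Mb. Their median width was 26.8 kb, with quartiles of 22.8 and 36.2 kb and a maximum of 212 kb. There were 212 regions of 50 kb or more and 19 of 100 kb or more. The median covered length was 24.4 kb in pgEpiSC 1 and 24.0 kb in pgEpiSC 4, against 1.8 kb in pEF 1 and 2.0 kb in pEF 2. These regions held 14.2% and 13.8% of all covered length in pgEpiSC 1 and 4, against 2.27% and 2.39% in pEF 1 and 2.

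**Figure D1:**
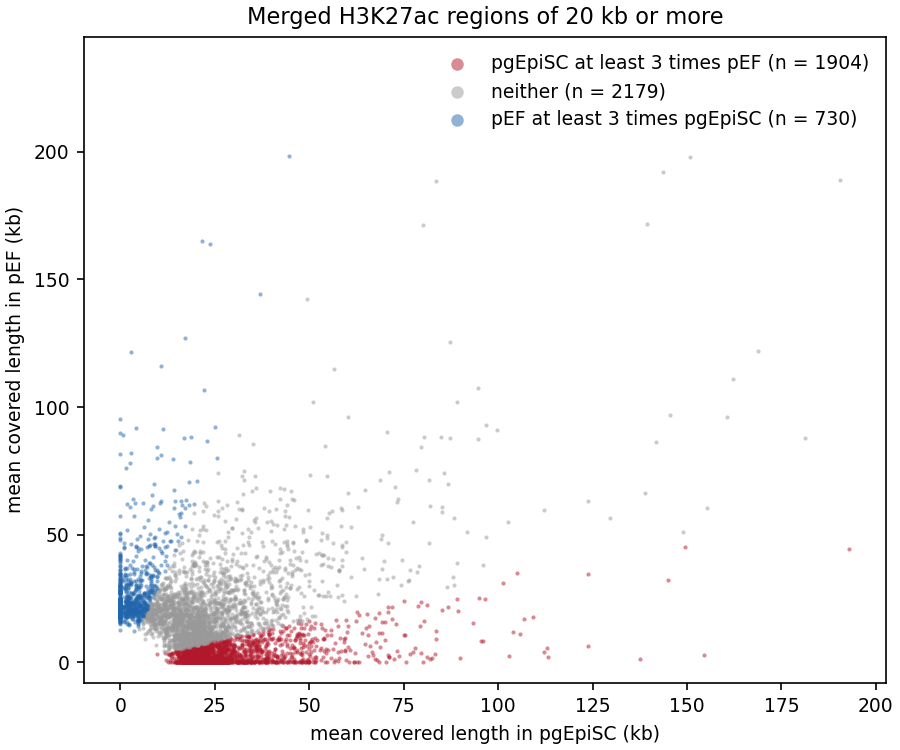
Mean covered length in pgEpiSC (x axis, kb, 2 libraries) against that in pEF (y axis, kb, 2 libraries) for each of the 4813 merged regions of 20 kb or more. The 1904 regions in red lie along the x axis because the ratio of 3 chose them, the 730 in blue met that ratio toward pEF and the 2179 in grey met neither.

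The width of a region came from joining the islands of several libraries. In 258 regions each pgEpiSC library had a single island, and in the others the islands of at least 1 of them were interrupted by gaps, which are 800 bp or longer in these lists. When islands were merged without pgEpiSC 1, 935 regions met the rule, and without pgEpiSC 4, 1103 did. Leaving out pEF 1 or pEF 2 gave 1883 or 1892. The number was thus lower without either pgEpiSC library.

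The pgEpiSC libraries covered most regions to a similar length. Their covered lengths were within 1.5 times of each other in 1771 of the 1904 regions and more than 2 times apart in 31. Covered length was longer in pgEpiSC 1 in 1081 regions, longer in pgEpiSC 4 in 776 and equal in 47. Across the 1904 regions, Pearson's r between the 2 libraries was 0.958 for covered length and 0.879 for fold over input. Spearman's rank correlation was 0.822 for covered length and 0.885 for fold. Both libraries share the region boundaries they helped to set, so these values describe likeness within the selection only.

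Fibroblast islands inside the regions were short beside those of pgEpiSC. No pEF island was present in 660 regions, 1 pEF library had an island in 234 and both had islands in 1010. The lower pgEpiSC value was above the higher pEF value in 1902 regions, so the cell types overlapped in 2, and it was at least 3 times the higher pEF value in 1659. A pEF island longer than 10 kb was found in 33 regions. The pEF islands that were present had a median length of 2.6 and 2.8 kb in pEF 1 and 2, against 11.8 and 9.4 kb for the pgEpiSC islands in pgEpiSC 1 and 4. Over all islands on chromosomes 1 to 18 the medians were 3.0 and 3.2 kb in pEF 1 and 2. The pEF islands in the regions were thus only slightly shorter than usual. For pgEpiSC 1 and 4 the medians over all islands were 4.8 and 4.2 kb, and the rule itself favoured long pgEpiSC coverage.

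Most genes of the core pluripotency factors lay in these regions. Of 15689 protein-coding genes with a symbol, the bodies of 1381 overlapped a region, which is 8.8%. Of 14 core pluripotency genes measured, 10 did: POU5F1, SOX2, SALL4, LIN28A, LIN28B, TRIM71, PRDM14, UTF1, FOXD3 and NR6A1. All 10 had at least 1 end of the gene inside a region, and 948 of all 15689 genes did. The median body of the list was 11.8 kb, and a region wider than a gene that it overlaps must hold an end of it. Counting each gene with flanks of 10 kb, the median share covered by islands among the 14 genes was 70.3% in pgEpiSC and 4.19% in pEF (means of 2 libraries), and the median difference was 65.1 percentage points, against 6.31 over all 15689 genes. None of the 14 overlapped a region dominated by pEF, and only 2.56% of all genes did.

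SOX2, a transcription factor of pluripotent and neural cells, lay in a region of 69.6 kb (chr13:119655601-119725200). Islands covered 67.8 and 65.8 kb of it in pgEpiSC 1 and 4, against 3.0 and 2.8 kb in pEF 1 and 2. POU5F1, which encodes OCT4, lay in a region of 54.2 kb that also held CCHCR1 and TCF19 (chr7:23547201-23601400). There the covered length was 46.8 kb in each pgEpiSC library, against 11.2 and 9.4 kb in pEF 1 and 2. At both genes the 2 pgEpiSC libraries were far above the 2 pEF libraries, and at POU5F1 the fibroblasts still carried 3 islands in each library.

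SALL4, a zinc finger factor that acts with OCT4, lay across 2 adjoining regions of 21.4 and 35.8 kb. The larger (chr17:53089401-53125200) was covered for 34.8 and 34.6 kb in pgEpiSC 1 and 4 and for 0 kb in both pEF libraries. PRDM14, a repressor of differentiation genes in pluripotent and germ cells, had 48.6 and 47.8 kb in pgEpiSC 1 and 4 and 0 kb in both pEF libraries (chr4:65251001-65308200). UTF1, a chromatin protein of pluripotent cells, and FOXD3, a forkhead factor, also had 0 kb in both pEF libraries. UTF1 had 27.4 and 27.8 kb in pgEpiSC 1 and 4, and FOXD3 had 35.0 and 27.6 kb. NR6A1, an orphan nuclear receptor that represses Pou5f1 in mouse, had 56.6 and 52.4 kb in the longer of its 2 regions in pgEpiSC 1 and 4, against 5.4 and 5.0 kb in pEF 1 and 2.

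LIN28A and LIN28B encode proteins that bind let-7 precursors and block their maturation, and TRIM71 encodes an RNA-binding ubiquitin ligase whose transcript is a let-7 target. The TRIM71 region (chr13:18754401-18841200) was covered for 85.0 and 78.8 kb in pgEpiSC 1 and 4, against 1.2 and 1.4 kb in pEF 1 and 2. The LIN28A region (chr6:83804201-83826200) was covered for 21.6 and 20.4 kb in pgEpiSC 1 and 4, against 3.4 and 3.6 kb in pEF 1 and 2. The LIN28B region took in 12.0% of the gene body and was covered for 23.4 and 20 kb in pgEpiSC 1 and 4, against 6.4 and 4.4 kb in pEF 1 and 2. The regions at LIN28A and LIN28B were narrow for the set, near its lower limit of 20 kb, and were among the 10 with the highest fold over input.

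The other 4 core genes had no region, namely NANOG, TDGF1, DPPA2 and DPPA4. Around NANOG the islands covered 59.5% and 32.1% of the gene and its 10 kb flanks in pgEpiSC 1 and 4, against 22.7% and 14.2% in pEF 1 and 2. Around TDGF1, the co-receptor of NODAL, they covered 64.9% and 64.1% in pgEpiSC 1 and 4, against 9.42% and 5.97% in pEF 1 and 2. DPPA4 had 36.5% and 42.6% in pgEpiSC 1 and 4, and DPPA2 had 0% and 15.4%, with 0% in both pEF libraries for each. NANOG, TDGF1 and DPPA4 were thus covered further in both pgEpiSC libraries than in either pEF library, and DPPA2 in pgEpiSC 4 alone.

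Genes of the formative and primed epiblast made up the second group, with 10 of 18 in the regions: OTX2, DNMT3A, DNMT3B, ZIC2, ZIC5, SALL2, FZD7, NODAL, GDF3 and LEFTY2. All 10 had an end of the gene in a region, against 948 of all 15689 genes, and the median body of this list was 8.68 kb. The median difference in covered share was 40.9 percentage points over the 18 genes. Of the 18, 15 (83.3%) were covered further in pgEpiSC, against 65.5% of all 15689 genes. OTX2, a homeobox factor of the epiblast and the forebrain, lay in a region of 37.4 kb (chr1:186009601-186047000). It was covered for 37.4 and 36.0 kb in pgEpiSC 1 and 4 and for 0 kb in both pEF libraries.

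DNMT3A and DNMT3B encode the enzymes that place new DNA methylation. The longer of 2 regions at DNMT3A spanned 100.2 kb (chr3:113523201-113623400) and was covered for 97.4 and 93.8 kb in pgEpiSC 1 and 4, against 6.4 and 10 kb in pEF 1 and 2. The longer of 2 regions at DNMT3B, which also held COMMD7, was covered for 96.8 and 90 kb in pgEpiSC 1 and 4, against 19.6 and 11.6 kb in pEF 1 and 2. Of 33 other enzymes of chromatin and DNA methylation measured, 3 overlapped a region, the remodelers CHD7 and CHD8 and the BAF subunit DPF1. That is 9.09% of the list, against the 8.8% of all genes.

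NODAL, the TGF-beta family ligand that keeps the epiblast pluripotent, and LEFTY2, its secreted inhibitor, both lay in the regions. The LEFTY2 region spanned 109.4 kb (chr10:13765801-13875200) and also held EPHX1 and TMEM63A, among others. It was covered for 107.6 and 104.0 kb in pgEpiSC 1 and 4, against 13.8 and 8.8 kb in pEF 1 and 2. NODAL lay across 2 regions, of which the longer was covered for 22.4 and 22.8 kb in pgEpiSC 1 and 4 and for 0 kb in both pEF libraries. GDF3, a related ligand, had 38.8 and 36.8 kb in pgEpiSC 1 and 4 and 0 kb in both pEF libraries. FZD7, a WNT receptor, had 76.2 and 67.8 kb in pgEpiSC 1 and 4, against 22.0 and 21.6 kb in pEF 1 and 2. ZIC2 and ZIC5, neighbouring zinc finger genes, shared a region in which the pEF libraries differed, with 44.4 and 42.0 kb in pgEpiSC 1 and 4, against 5.2 and 19.6 kb in pEF 1 and 2. The 8 formative genes without a region included FGF5 and DUSP6, and FGF5, a growth factor gene of the primed epiblast in mouse, was covered with its flanks for 0% and 14.5% in pgEpiSC 1 and 4, against 4.67% and 0% in pEF 1 and 2.

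**Figure D2:**
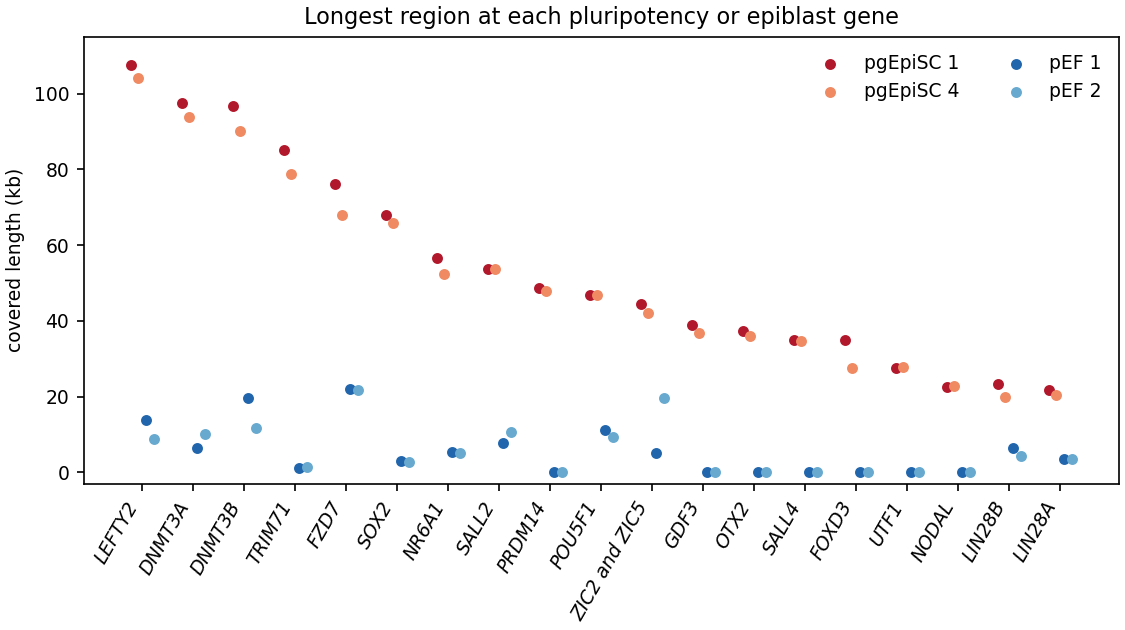
Covered length (y axis, kb) in each of the 4 libraries for the longest region at each core pluripotency or formative epiblast gene, ordered by the pgEpiSC mean. ZIC2 and ZIC5 share a region; both pgEpiSC points lie above both pEF points at every gene shown, from LEFTY2 at 107.6 and 104.0 kb to LIN28A at 21.6 and 20.4 kb.

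Naive pluripotency is the earlier state described in mouse embryonic stem cells. Of 13 of its genes measured, 4 overlapped a region: ESRRB, KLF5, TFAP2C and FGF4. The KLF5 region was covered for 26.6 and 24.8 kb in pgEpiSC 1 and 4, against 4.8 and 8.0 kb in pEF 1 and 2. TFAP2C, an AP-2 factor, had 18.8 and 12.6 kb in pgEpiSC 1 and 4 and 0 kb in both pEF libraries. FGF4, a ligand of the epiblast, had 19.8 and 20.4 kb, and ESRRB, an orphan nuclear receptor, 22.4 and 17.2 kb in pgEpiSC 1 and 4, again with 0 kb in both pEF libraries. The median difference in covered share over the 13 genes was 5.34 percentage points, below the 6.31 of all genes, and TBX3 lay in a region dominated by pEF instead.

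Epithelial genes formed the largest listed group in the regions by count, 16 of 36, but their list was also the longest measured. Their share was 44.4%, against 8.8% of all genes. It was below the shares of core pluripotency genes (71.4%), surface genes of neurons (63.6%) and formative genes (55.6%). An end lay inside a region for 14 of the 36, against 948 of all 15689 genes. Epiblast cells are epithelial, held together by E-cadherin and joined at tight junctions, while fibroblasts are mesenchymal. All 36 genes were covered further in pgEpiSC, against 65.5% of all 15689 genes. The median difference was 40.1 percentage points, against 6.31 over all genes. CDH1, which encodes E-cadherin, lay in a region of 49.6 kb (chr6:18119201-18168800) covered for 45.6 and 46.8 kb in pgEpiSC 1 and 4, against 2.8 and 5.4 kb in pEF 1 and 2. DSP, the desmosomal plaque protein desmoplakin, had 47.8 and 44.2 kb in pgEpiSC 1 and 4 and 1.4 kb in each pEF library. KRT18, a keratin of simple epithelia, had 58.6 and 56.8 kb in pgEpiSC 1 and 4, against 13.2 and 15 kb in pEF 1 and 2.

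Some transcription and splicing factors of epithelial cells were in the regions, while OVOL2, GRHL1 and ESRP2 were not. GRHL3, a grainyhead factor, lay in 2 regions, the longer covered for 48.6 and 51.2 kb in pgEpiSC 1 and 4, against 1.2 and 0 kb in pEF 1 and 2. The regions at GRHL2, its relative, at ST14, a membrane protease, and at ESRP1, an epithelial splicing factor, had 0 kb in both pEF libraries. TJP1, a tight-junction scaffold gene, had a longer region but also more fibroblast coverage, with 61.8 and 58.8 kb in pgEpiSC 1 and 4, against 11.6 and 16.6 kb in pEF 1 and 2.

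**Figure D3:**
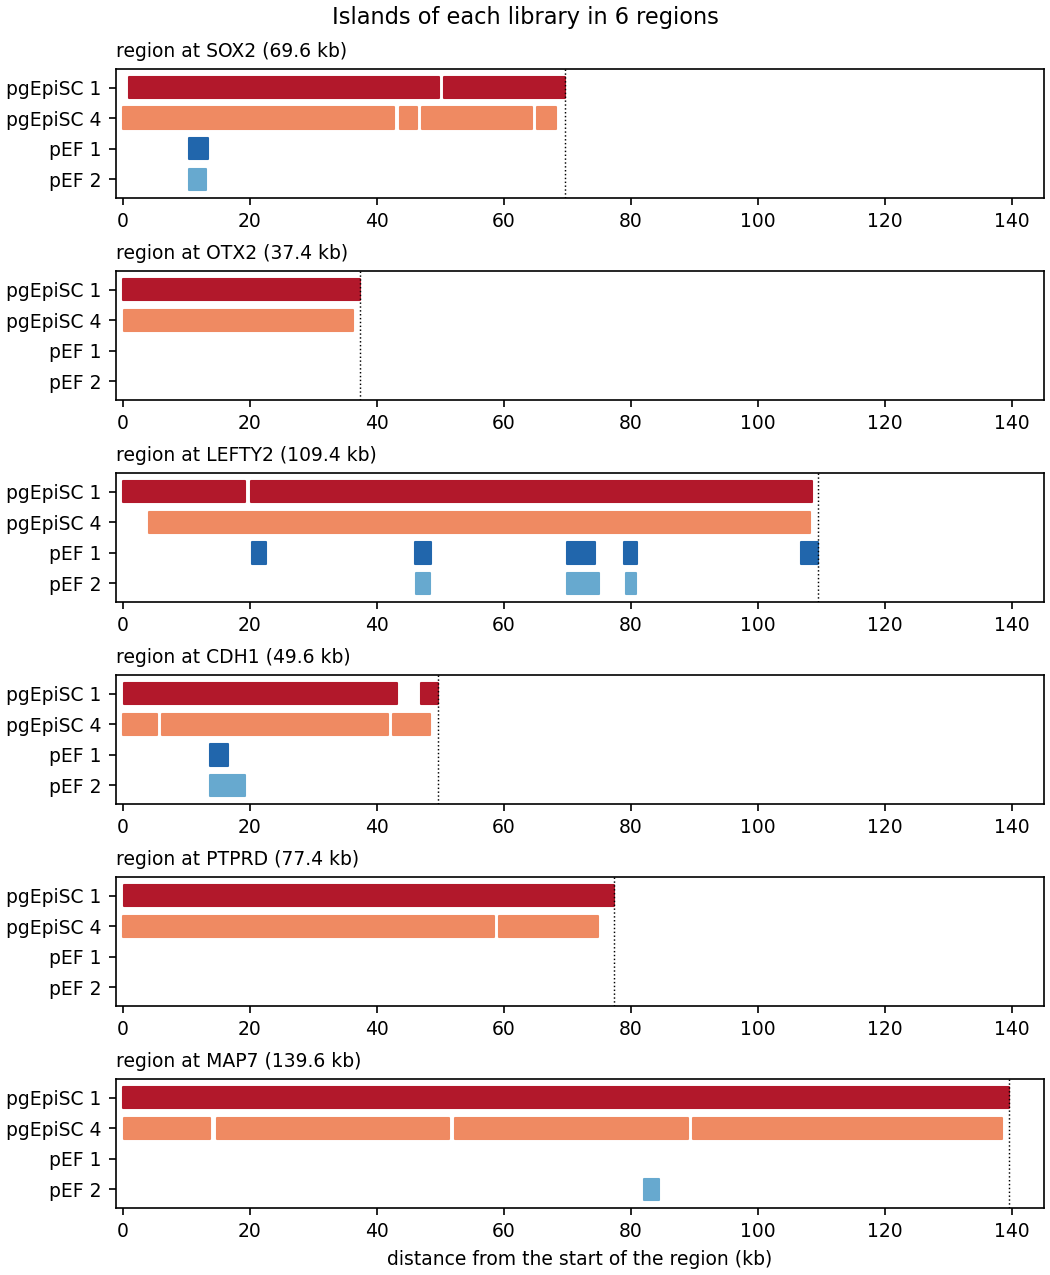
Islands of the 4 libraries (rows) along 6 regions, as distance from the start of the region (x axis, kb); the dotted line marks its end. At SOX2, LEFTY2 and CDH1 the pgEpiSC islands run nearly end to end over short pEF islands, and at OTX2 and PTPRD no pEF island is present; at MAP7 a single pgEpiSC 1 island spans 139.6 kb and pEF 2 alone has an island, of 2.4 kb.

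Among FGF, NODAL and WNT signalling genes, the pathways on which primed epiblast cells depend, 10 of 34 overlapped a region. They were the receptors FGFR1, FGFR2, FGFR3, ACVR1B, BMPR1B and FZD5, the ligands WNT3 and WNT8A, the transducer SMAD2 and the feedback inhibitor AXIN2. FGFR2 had the longest, covered for 97.4 and 95.8 kb in pgEpiSC 1 and 4, against 23.6 and 26.0 kb in pEF 1 and 2 (chr14:131199801-131299000). The longer region at WNT3 was covered for 72.4 and 69.6 kb in pgEpiSC 1 and 4, against 2.8 and 1.4 kb in pEF 1 and 2, and the WNT8A region for 34.6 and 32.0 kb, against 0 kb in both. FGFR1 had 49.6 and 45.4 kb in pgEpiSC 1 and 4, against 11.2 and 6.6 kb in pEF 1 and 2. SMAD2 had 49.4 and 42.8 kb in pgEpiSC 1 and 4, against 14.6 and 12.2 kb in pEF 1 and 2. In the same list, 16 genes overlapped a broad region that met neither ratio and 3 overlapped one dominated by pEF, namely SPRY1, SMAD3 and WNT5B. Over all genes, 8.8% overlapped a pgEpiSC-dominated region, 12.3% one that met neither ratio and 2.56% one dominated by pEF. The list thus stood above the share of all genes in each of these classes of broad region.

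Long genes with roles on the surface of neurons overlapped the regions in 14 of 22 cases, among them PTPRD, TENM2, TENM3, TENM4, GPM6A and ADGRL2. These genes are long, with a median body of 1172 kb against 25.7 kb for all genes. Among all genes, longer ones overlapped a region more often: 4.12% of genes under 20 kb, 8.33% of genes of 20 to 100 kb, 20.4% of genes of 100 to 500 kb and 36.8% of genes of 500 kb or more did. Of the 14 genes, 2 had an end in a region, TENM3 and ADGRL3, so the regions at the other 12 lay inside the gene, away from both ends. PTPRD, a receptor phosphatase at synapses, held 7 regions within 326 kb, together covered for 260.2 and 261.4 kb in pgEpiSC 1 and 4, against 2.8 and 6.6 kb in pEF 1 and 2.

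**Figure D4:**
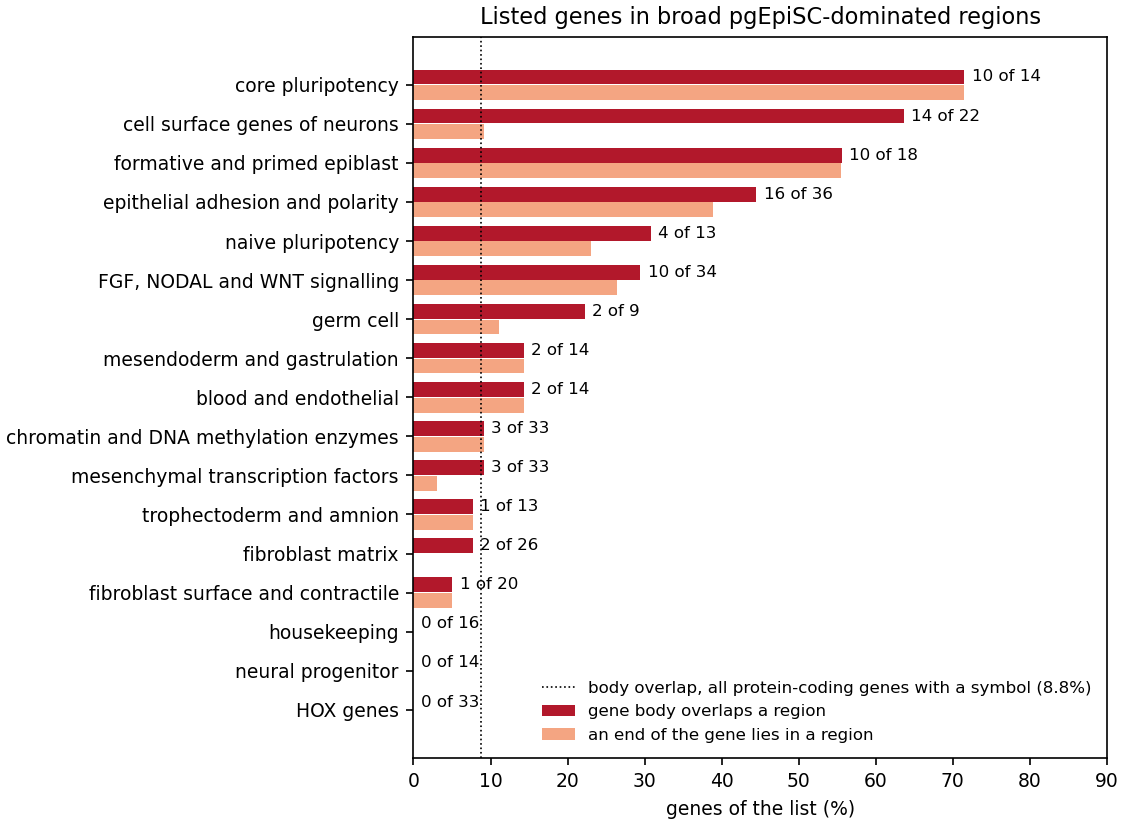
Dark bars, with counts, give the share of the measured genes of each list (x axis, %) whose body overlaps a broad pgEpiSC-dominated region. Light bars give the share with an end in one. The dotted line is the 8.8% of all protein-coding genes for body overlap only, and 948 of 15689 had an end in a region. Core pluripotency (10 of 14) and formative genes (10 of 18) keep their share when ends are required, while the neuronal surface genes (14 of 22) do not. Median bodies are 11.8, 8.68 and 1172 kb in these lists. A region wider than a gene that it overlaps must hold an end of it, so gene length enters this contrast.

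The lists of other lineages are set against the 8.8% of all genes. No region overlapped any of 33 HOX genes, 14 neural progenitor genes or 16 housekeeping genes. These lists hold mostly short genes, with median bodies of 4.11, 4.74 and 7.78 kb. Of all genes under 20 kb, 4.12% overlapped a region, so in lists of this size a count of 0 is by itself little below that share. The HOX genes differed in other values. Of the 33, 16 overlapped a pEF-dominated region, against 2.56% of all genes, 2 of the neural progenitor genes and 0 of the housekeeping genes. With flanks of 10 kb, their median covered share was 0% in pgEpiSC and 71.4% in pEF. Of 26 fibroblast matrix genes, 2 overlapped a region, FBN2 and VCAN, and in neither did a gene end lie inside. Of 33 mesenchymal transcription factors 3 did, NFIA, NFIB and TCF12, and of 20 fibroblast surface and contractile genes 1 did, PDGFRB. Regions dominated by pEF overlapped 9, 6 and 4 genes of these lists, in the same order. In mesendoderm, 2 of 14 genes overlapped a pgEpiSC-dominated region. GSC, a homeobox gene of the organizer, had 39.0 and 35.8 kb in pgEpiSC 1 and 4, against 4.2 and 3.8 kb in pEF 1 and 2. FOXA2, an endoderm factor, had 29.6 and 27.2 kb in pgEpiSC 1 and 4 and 0 kb in both pEF libraries. The remaining counts were 1 of 13 trophectoderm genes (TEAD4), 2 of 9 germ cell genes (KIT and PIWIL2) and 2 of 14 blood and endothelial genes (LCP1 and PECAM1). Germ cell genes thus stood at 22.2% and the mesendoderm and the blood and endothelial lists at 14.3% each, above the share of all genes but on 2 genes each.

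Among cell type markers, 10 of 12 epiblast and 7 of 9 epithelial ones overlapped a pgEpiSC-dominated region, against 1 of 11 fibroblast markers. Of those 11, 6 overlapped a pEF-dominated region, COL1A2, COL3A1, FN1, FBN1, TWIST1 and VIM. Another 3 overlaps, at COL1A1, PRRX1 and PDGFRB, were with broad regions that met neither ratio. Over all genes, 8.8% overlapped a pgEpiSC-dominated region, 2.56% a broad pEF-dominated region and 12.3% a broad region that met neither ratio. The ratio that chose the regions compared the same libraries, so these counts describe the selection and do not test the cell labels. Markers of other cell types in the set were FOXA2, LCP1 and PECAM1, 3 of 13, and the part that other cells in the cultures had in those 3 regions was not tested.

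NFIA was the exception among mesenchymal factors in its extent. It is a nuclear factor I gene of brain and other organs, and 5 regions lay at it within 401 kb, together covered for 248.6 and 241.0 kb in pgEpiSC 1 and 4, against 23.6 and 37.2 kb in pEF 1 and 2. The first of them (chr6:150820801-150905000) contained an end of the gene. Both fibroblast libraries had islands in this run, and both were far below either pgEpiSC library.

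The 10 widest regions were named for genes outside the core, formative and naive lists. The widest, 212.4 kb at ATXN7L1, a paralogue of a SAGA complex subunit (chr9:105442601-105655000), was covered for 189.6 and 196.4 kb in pgEpiSC 1 and 4, against 43.4 and 45.2 kb in pEF 1 and 2. The next, 161.6 kb at PPARGC1B, a coactivator of mitochondrial genes, and PDE6A (chr2:150822601-150984200), was covered for 161.6 and 147.2 kb in pgEpiSC 1 and 4, against 2.4 and 3.6 kb in pEF 1 and 2. MAP7, a microtubule-binding protein of epithelial cells, lay in a region of 139.6 kb covered for 139.6 and 135.4 kb in pgEpiSC 1 and 4, against 0 and 2.4 kb in pEF 1 and 2. The others lay at ENO1 and CA6, BLZF1 and NME7, CUX1, CLYBL, CMIP, MTA3 and KCNG3, and NDUFS4. Fibroblast coverage ranged among these 10 from 1.2 kb at MAP7 to 45.0 kb at ENO1 (means of 2 libraries).

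Fold over input inside the regions was modest. The length-weighted fold had a median over regions of 2.21 in pgEpiSC 1 and 2.06 in pgEpiSC 4. In the broad regions that met neither ratio, the same medians were 2.12 and 1.96, and in those dominated by pEF they were 1.78 and 1.63. The pEF islands inside the pgEpiSC-dominated regions had medians of 4.24 and 3.91 in pEF 1 and 2, against 5.94 and 5.75 in the regions that met neither ratio. Fold is not comparable between the cell types here, because each list has its own scaling and the pEF lists were higher throughout.

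**Figure D5:**
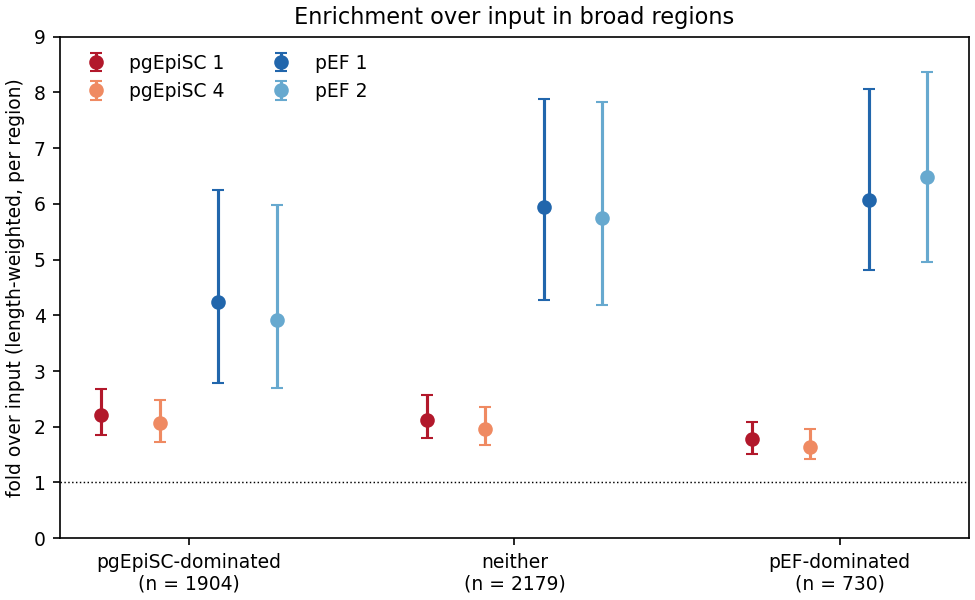
Length-weighted fold over input per region (y axis) in the 4 libraries for the 3 classes of broad region; points are medians over the regions with an island in that library and bars span the quartiles. Within pgEpiSC the regions they dominate (2.21 and 2.06) sit just above those that met neither ratio (2.12 and 1.96); the pEF libraries are higher in every class.

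The mean pgEpiSC fold was under 1 in 3 regions, from 1 to 1.5 in 94, from 1.5 to 2 in 683, from 2 to 3 in 943 and 3 or more in 181. The highest value, 5.06, was at LIN28A and DHDDS, where it was 5.08 in pgEpiSC 1 and 5.05 in pgEpiSC 4. It was followed by the region at ABCB5 and SP8 with 4.69 and 5.20 in pgEpiSC 1 and 4, that at SALL2 and METTL3 with 4.95 and 4.41, one 13.9 kb from LEMD1 with 4.77 and 4.23, and that at LIN28B with 4.49 and 4.35. SALL2 is a zinc finger relative of SALL4, and SP8 a zinc finger factor of limb and forebrain. The other 5 of the 10 highest lay 5.61 kb from PPM1K, 766.1 kb from PCDH20, and at EMSY, OXT and ERBB2 with PGAP3. The nearest gene with a symbol gives a region its name only, whatever the distance.

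The 3 regions under 1 had less ChIP than input after scaling. They lay 45.5 kb from UGT2B31 with 0.731 and 0.702 in pgEpiSC 1 and 4, at CHD1L with 0.906 and 0.876, and 542.4 kb from LPCAT4 with 0.861 and 0.949. With islands of FDR under 0.01 alone, the difference in covered length between pgEpiSC and pEF was 0 kb at the first and the last of these, against 28.1 and 31.1 kb with all islands, and 13.5 kb at CHD1L, against 64.6 kb. With islands of fold 2 or more alone, 1018 regions met the rule.

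The limits of the rule passed through a continuum of values. Just inside the ratio of 3, the region 34.8 kb from METRNL was covered for 26.8 and 23.0 kb in pgEpiSC 1 and 4, against 8.8 and 7.8 kb in pEF 1 and 2, that 58.2 kb from PIK3R4 for 22.2 and 11.4 kb, against 6.6 and 4.6 kb, and that at RAB35 and GCN1 for 16.2 and 18 kb, against 5.4 and 6.0 kb. Just outside it, with ratios of 2.99, were regions at SLC6A9, KDM2B and PRKD1. KDM2B, a histone demethylase that recruits Polycomb complexes, had 22.2 and 22.6 kb in pgEpiSC 1 and 4, against 8.4 and 6.6 kb in pEF 1 and 2. Exactly 42 regions were 20 kb wide, among them those 66.8 kb from CPNE4, 95.4 kb from FAM19A5 and at RPTOR, and 40 that met the ratio were 1 window of 200 bp narrower.

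The regions sat at genes in different ways. An end of a protein-coding gene lay in 716 of them (37.6%), 784 (41.2%) lay inside a gene and 404 (21.2%) lay between genes. In the broad regions dominated by pEF, these shares were 26.2%, 36.4% and 37.4%, and in those that met neither ratio they were 48.4%, 34.3% and 17.3%. The reference table gives no strand, so a gene end is either its start or its finish. Regions with a gene end were wider, with a median of 29.4 kb, against 26.0 kb inside genes and 25.2 kb between genes.

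Fibroblast islands were more frequent in the regions with a gene end. Both pEF libraries had an island in 74.2% of them, in 43.4% of the regions inside genes and in 34.4% of those between genes. The regions between genes had no pEF island at all in 50.3% of cases. Within the regions, pEF islands at a gene end had a median fold over input of 7.14 and 6.62 in pEF 1 and 2, against 3.12 and 3.004 for pEF islands elsewhere. The pgEpiSC islands at a gene end had 2.35 and 2.18 in pgEpiSC 1 and 4, against 1.87 and 1.75 elsewhere. Over all islands on chromosomes 1 to 18 the medians were alike. They were 7.28 and 6.655 at a gene end in pEF 1 and 2, against 3.01 and 3.05 elsewhere. In pgEpiSC 1 and 4 they were 2.42 and 2.17, against 1.71 and 1.62. The contrast in fold between gene ends and elsewhere was thus not particular to these regions.

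The regions lay in groups along the chromosomes. Another member was within 100 kb for 1016 of them (53.4%), as was another region of the same class for 46.9% of the pEF-dominated regions and 56.0% of those that met neither ratio. There were 140 runs of 3 or more regions with gaps under 100 kb. The longest by number held 10 regions from NDUFS4 to ARL15 on chromosome 16. A run of 9 spanned 757.2 kb from CLYBL over ZIC5 and ZIC2 to PCCA on chromosome 11, covered for 548.8 and 511.2 kb in pgEpiSC 1 and 4, against 22.6 and 35.6 kb in pEF 1 and 2.

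A run of 7 from ATP9A over SALL4 to ZFP64 was covered for 286.0 and 277.8 kb in pgEpiSC 1 and 4, against 7.0 and 12.6 kb in pEF 1 and 2. A run of 5 from OTX2 toward EXOC5 spanned 229.6 kb and was covered for 192.4 and 174.8 kb in pgEpiSC 1 and 4 and for 0 kb in both pEF libraries. A run of 5 near SALL1, between 153.5 and 347.3 kb from that gene, which is in none of the lists and overlapped no region, was covered for 129.0 and 110.4 kb in pgEpiSC 1 and 4, against 6.6 and 3.0 kb in pEF 1 and 2. Across single genes, 78 overlapped at least 3 regions, and NAV2, PTPRD and ADGRL2 overlapped 7 each, the most of any gene.

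MicroRNA genes were found in 17 regions, which held 22 of the 270 microRNA genes in the reference table. Among protein-coding genes with a symbol, 1381 of 15689 (8.8%) overlapped a region, so microRNA genes did not stand out by number. Those described next were picked from the 22. MIR371, of a family expressed in human pluripotent stem cells, lay in a region at NLRP12 (chr6:56411801-56478800) covered for 60.4 and 66.0 kb in pgEpiSC 1 and 4, against 0.4 and 0 kb in pEF 1 and 2. MIR429, a member of the miR-200 family that represses the mesenchymal factors ZEB1 and ZEB2, lay in a region covered for 75.8 and 91.4 kb in pgEpiSC 1 and 4, against 11.6 and 6.4 kb in pEF 1 and 2. The cluster of MIR183, MIR96 and MIR182 lay in a region covered for 17.8 and 20 kb in pgEpiSC 1 and 4 and for 0 kb in both pEF libraries, with a mean fold of 3.89 in pgEpiSC. The let-7 genes MIRLET7A-2, MIRLET7F-2 and MIRLET7D, whose products oppose LIN28A, shared a region covered for 20.6 and 18.2 kb in pgEpiSC 1 and 4, against 4.4 and 5.8 kb in pEF 1 and 2. Of 6 microRNA genes matched from a stem cell list, 2 were in the regions, MIR371 and MIR429. Outside that list, MIR1 and MIR133A-1 shared a region covered for 27.4 and 29.4 kb in pgEpiSC 1 and 4, against 2.2 and 1.4 kb in pEF 1 and 2. MIR9-2 had 21.0 and 20.8 kb in pgEpiSC 1 and 4 and 0 kb in both pEF libraries. MIR338 and MIR342 were also in the regions.

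The regions were spread over all 18 autosomes. They made up from 30% of the broad regions on chromosome 10 to 51.1% on chromosome 8. Per 100 Mb, their number ranged from 51.4 on chromosome 13 to 177 on chromosome 12.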

How the data were processed

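H3K27ac ChIP-seq island lists of 4 libraries were analysed. BWA 0.7.15, SAMtools 0.1.19 and SICER 1.1 are named in the submitters' processing notes; their build and read filters are not given in the sources used here. Per island, the deposited lists give ChIP and input read counts as whole numbers. They also give the authors' p-value and FDR as deposited p-value columns. The deposited fold column is a ratio of ChIP to input reads with 1 constant per list. Islands were built from 200 bp windows, and the FDR reached 1.0 in each list.

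Islands overlapping by at least 1 bp were merged, covered length was summed per library, and fold was averaged by island length; this was checked on simulated data. Gene names and positions relative to islands came from the RefSeq table of assembly Sscrofa11.1, whose coordinates are not printed: on 18 of 18 chromosomes, islands held more gene ends than positions shifted by 20 kb. Of 397 distinct listed genes, 368 matched. The regions, lists and alternatives were chosen with earlier results of these data known. Named regions were the 10 widest, the 10 highest and 5 lowest in fold, the 5 with most ChIP reads per kb, those nearest the limits, and up to 6 genes per list by covered length; names from runs and microRNAs were added after their values were seen. Promoter sequences were not analysed here, and some named regions and genes are not reported here. Counts of reads in islands depend on depth, and intervals would cover counting error only. Python 3.11.15, numpy 2.4.6, pandas 2.3.3 and matplotlib 3.10.9 were used.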

Additional observations from a re-analysis of the deposited data

Results flagged for a closer look

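Signal outside the autosomes was not part of the rule. On the X chromosome, 25 merged regions of 20 kb or more met the same ratio toward pgEpiSC, against 9 toward pEF, with 19 that met neither. On the other sequence names in the lists, mostly unplaced scaffolds, 41 met it toward pgEpiSC, against 0 toward pEF, with 21 that met neither. The labels give no control without acetylation, so these are counts above 0 in data that the comparisons left out.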

How the results depend on the processing

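Of the alternatives run, the count of 1904 regions moved by over 1.5 times with a minimum width of 15 kb (3574) or 30 kb (713), and with islands of fold 2 or more (1018). Leaving out 1 library in turn gave 935 to 1892 regions, 753 to 1394 genes (1381 with all), 53 to 80 protein-coding listed genes (80), covered medians of 24.2 to 26.2 kb (24.2), median folds of 2.14 to 2.46 (2.14) and 34.5% to 39.0% of regions at a gene end (37.6%); the lowest counts came without pgEpiSC 1 and the highest covered median and fold without pgEpiSC 4. At 30 kb, listed genes were 45, fold 2.29 and the share at a gene end 48.4%; at 15 kb that share was 31.6%, with a ratio of 5 it was 32.9% and with lengths scaled to library totals 33.9%. Fold moved to 2.30 with islands of fold 1.5 or more, to 2.66 with fold 2 or more and to 2.00 when islands within 1 kb were merged. Covered medians moved to 23.9 kb with fold 2 or more and to 23.8 kb with merging within 1 kb. They moved to 24.5 kb when each pgEpiSC library had to have at least 3 times the covered length of each pEF library. Genes numbered 777 with fold 2 or more and 441, with 40 listed, when 50% of the body had to lie in regions. Apart from the construction of each setting, the cause was not tested.

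For the 32 named regions, 239 of 256 differences in covered length stayed positive. Another 10 became 0: those named for UGT2B31 and LPCAT4 with FDR under 0.01, with fold 1.5 or more and with fold 2 or more, and those named for TTC5 and SERPINA3-2 under both fold limits. The other 7 turned negative: with islands of fold 1.5 or more at CHD1L (-5.1 kb), and with fold 2 or more at CHD1L (-6.6 kb), near METRNL (-8.3 kb), near PIK3R4 (-5.6 kb), at RAB35 and GCN1 (-2.1 kb), near FAM19A5 (-1.1 kb) and at RPTOR (-2.6 kb). No paired analysis was possible because the cell types share only the number 1.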
